A study of Danio rerio with 14 samples.

Results

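The genes of the proteasome and of ubiquitin conjugation and removal were followed in the zebrafish pineal gland, a small clock organ that senses light directly and releases melatonin at night. They were chosen by name: the symbol in the platform annotation begins with psm (proteasome), ube2, uba or usp, or with cul and a digit (cullins). This took 117 of the 8793 genes on the array, 50 of them proteasome genes and 67 others, called the ubiquitin genes here, and a gene with several probe sets was represented by the probe set with the highest mean signal. The name rule also takes in genes that are no proteasome subunits, E1 enzymes or ubiquitin-specific proteases, such as ubald1a and ubap2b among the uba symbols, usp6nl and uspl1 among the usp symbols, and psmc3ip and psme3ip1 among the psm symbols. Of the 117, 108 had a mean signal above the limit for testing, 49 proteasome genes and 59 others. The other 9, psmc3ip, uba7, ube2t, ube2wb, usp11, usp16, usp21, usp49 and usp6nl, had mean signals of 3.64 to 28.1 and were not tested.

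The glands came from adult Tg(aanat2:EGFP) zebrafish of both sexes, aged 3 to 6 months, in which the aanat2 promoter drives green fluorescent protein in pineal photoreceptors. All fish were raised under 12 h of light and 12 h of darkness at 28 °C. For the collections they were either kept in that cycle (LD, 7 arrays) or placed in constant darkness (DD, 7 arrays), and both conditions were sampled at zeitgeber times (ZT, hours after lights on) 2, 6, 10, 14, 18 and 22, with an additional collection labelled ZT2b that was treated as ZT2. An array was hybridised with RNA from a pool of 12 glands, amplified about 1800-fold, so most times had a single pool per condition, and a p-value here reflects how far pools scatter about the model. In pooled tissue, fewer cells of a type and less RNA per cell cannot be told apart.

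Proteins are marked for destruction by ubiquitin, which an E1 enzyme activates, an E2 enzyme carries and an E3 ligase attaches. The cullins are the scaffolds of the largest family of E3 ligases, and ubiquitin-specific proteases take the mark off again. Marked proteins are unfolded by the regulatory particle of the proteasome, with its ring of ATPases, and cut inside the core particle, a barrel of alpha and beta rings. In the circadian clock, this system sets how long the period and cryptochrome repressors last.

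The tissue label was checked against its markers: all 7 photoreceptor and pineal genes checked, among them exorh and aanat2, were measured, with summed signals of 33332 to 52925 in LD and 31161 to 41820 in DD. Of these 7 genes, 2 were called higher in LD and 0 lower, where 20.6% of all probe sets tested were called. Of 4 glial markers, 1 was higher in LD and 1 lower. Red cell markers were lower in LD, with 4 of 4 called and summed signals of 7085 to 12018 in LD and 9110 to 18214 in DD. Leukocyte markers were lower in LD for 2 of 5 tested. The sums over the 6 measured were 2454 to 4298 in LD and 2999 to 7436 in DD, and mpx, with signals of 1.9 to 20.5, was too dim to be tested. The part of these cells in the results below was not tested. The DD array of ZT10 stood apart from the rest. Its mean correlation with the other arrays of its condition was 0.938, against 0.956 to 0.965 for the others. Its poly-A control transcripts had a geometric mean signal of 1620, against at most 237 on the other 13 arrays. Its GAPDH 3'/5' ratio was 16.7, against 5.09 to 12.9.

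The proteasome genes moved together on that array. Of the 49 tested, 38 had their lowest signal of all 14 arrays on the DD array of ZT10, while 19.5% of all probe sets tested had theirs there. Relative to the mean of the other 6 DD arrays, the median proteasome gene was lower by 0.61 on the log2 scale (median difference -0.61) and 47 of 49 were below 0. Over all probe sets tested the median difference was 0.04, with 47.2% below 0. All log2 values were computed after adding 14.9 to the signal, which understates the change of dim genes.

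**Figure D1:**
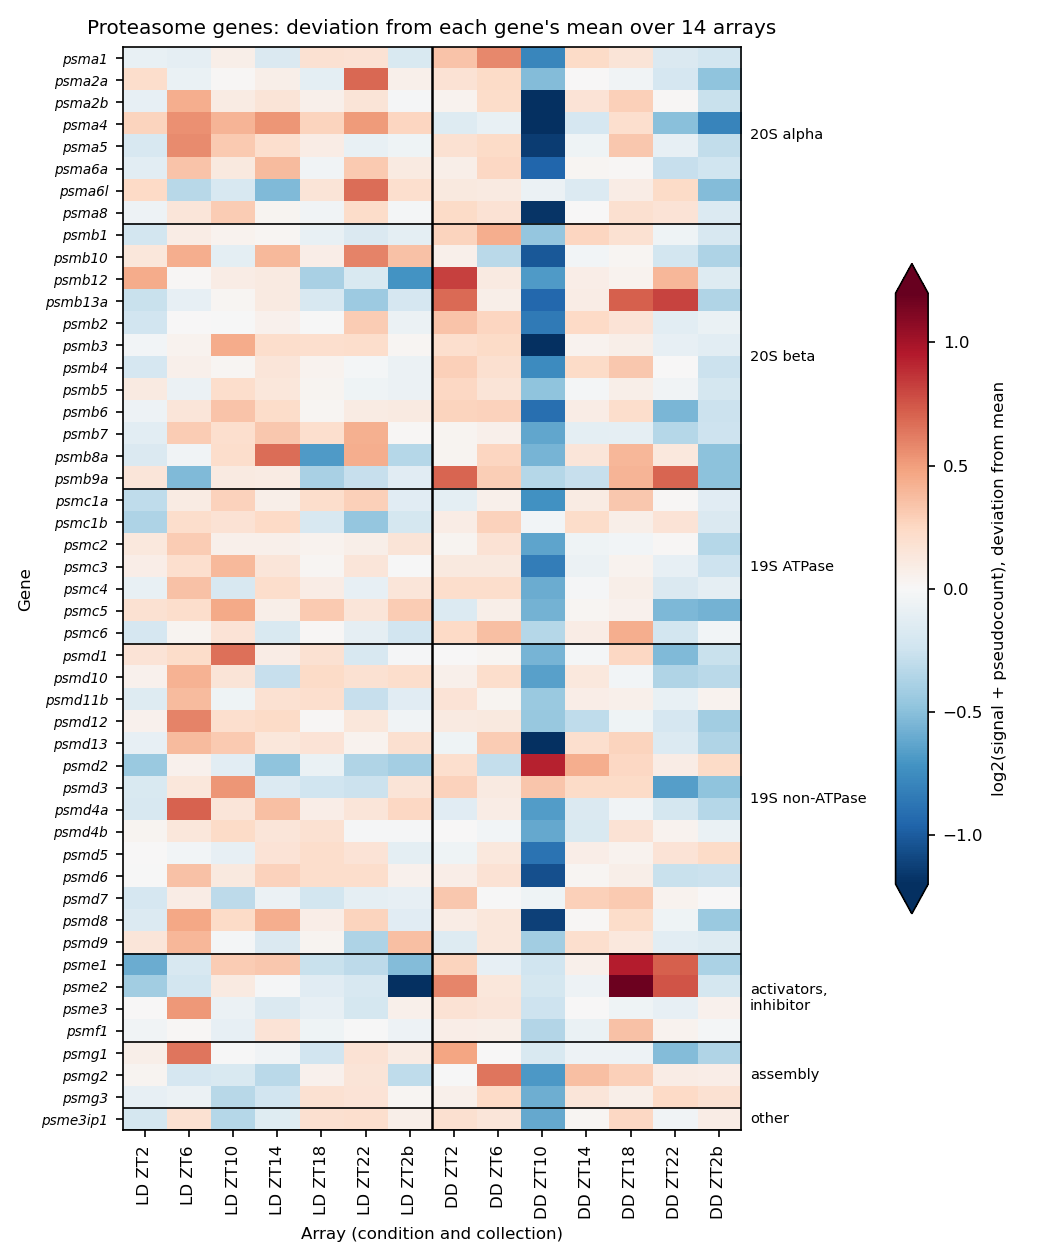
Deviation of each of the 49 tested proteasome genes (rows, grouped by role) from its own mean over 14 arrays, as log2(signal + 14.9), with the LD arrays left of the line and the DD arrays right of it; colours saturate at the ends of the scale. The column of DD ZT10 is blue for nearly all genes, and psmd2 and psmd3 are above their mean there.

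All 8 alpha ring genes, which form the gate of the core particle, were lower on the DD array of ZT10 than on the mean of the other 6 DD arrays, by a median of -0.97. All 12 beta ring genes, which include the catalytic subunits, were lower too, with a median of -0.88. The largest proteasome decrease was that of psmb3, a beta subunit. Its signal was 408.5 on the DD array of ZT10, against 1026 to 1315 on the other 6 DD arrays, a difference of -1.47.

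The 7 genes of the ATPase ring were all lower there, with a median of -0.60. So were 12 of the 14 psmd genes, most of which encode other subunits of the regulatory particle, with a median of -0.51. The exceptions were psmd2 and psmd3, which both encode subunits of that particle. psmd2 had 546 on this array, against 227 to 385 on the other DD arrays. psmd3 had 325 there, against 155 to 310.

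Of the ubiquitin genes on this array, 25 of 59 were below the mean of the other DD arrays, with a median of 0.10. The largest drop of any gene in either set was that of ube2nb, an E2 that builds non-degradative chains. It had 91.7 on the DD array of ZT10, against 340 to 481 on the other 6. On the LD array of ZT6, 15 of 49 proteasome genes and 12 of 59 ubiquitin genes had their highest signal of all arrays (8.47% of all probe sets tested). The median deviation of the proteasome genes was 0.14 there, against 0.16 on the DD array of ZT18. Spike, GAPDH and correlation values of the DD array of ZT10 stood apart along with its low proteasome signals, and their part in these was not tested.

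**Figure D2:**
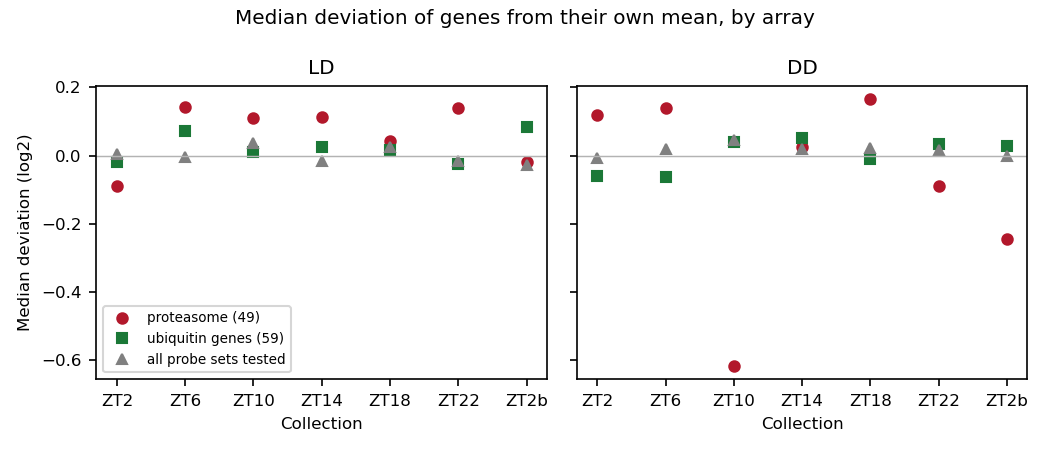
Median deviation (log2) of genes from their own mean over 14 arrays, for the proteasome (circles), the ubiquitin genes (squares) and all probe sets tested (triangles), by collection, with LD left and DD right. The proteasome median is -0.62 on the DD array of ZT10 and between -0.25 and 0.16 on the other 13 arrays, while the ubiquitin genes stay between -0.06 and 0.08.

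This single array also set the spread of the proteasome genes. Their median standard deviation (log2) was 0.19 over the LD arrays and 0.33 over the DD arrays, where all probe sets tested had 0.28 and 0.29. With the DD array of ZT10 left out, the DD value fell to 0.22 for the proteasome and to 0.23 for all probe sets. The ubiquitin genes had 0.23 in LD and 0.25 in DD with all arrays. Both sets were brighter than all probe sets tested, with a median mean signal of 366 and 206 against 126. Part of this is set by the choice of members, since the brightest probe set was taken per gene, while all probe sets tested include dimmer ones of the same genes. The part of brightness in these spreads was not tested. The steadiest gene of either set over the 14 arrays was usp33, with a standard deviation of 0.12, and psme2 had the widest spread of the proteasome genes, with 0.58.

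Whether constant darkness changed the level of the proteasome was asked by comparing LD with DD at matched times, with collection time entered as a block. limma with Benjamini-Hochberg adjustment called 6 of the 49 proteasome genes (12.2%), where 20.6% of all probe sets tested were called. Of these, 5 were higher in LD (10% of all probe sets tested) and 1 was lower (10.6%). The median of the 49 genes was 0.11 with 32 above 0. It was -0.0016 once the DD array of ZT10 was left out, with 24 above 0 and 25 below. With time as a block, this also takes the weight from the LD array of ZT10. The lean of the whole set to higher values in LD therefore rested on the ZT10 pair. Without that DD array the count of calls was 6 as well (12.2%), now 4 higher and 2 lower, where 22.6% of all probe sets tested were called. psmb7 was lost (adjusted p = 0.0780) and psme2 gained (0.0243). Hybridisation control transcripts had geometric mean signals of 692 to 965 on the LD arrays, against 514 to 702 on the DD arrays other than that of ZT10, which had 1018. Their part in the differences between LD and DD was not tested.

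psma4, an alpha ring subunit, had the largest difference of the proteasome. Its lowest, median and highest signals were 720, 802 and 886 in LD, against 240, 521 and 692 in DD. The groups did not overlap, which held for 4.46% of all probe sets tested (2.13% higher in LD and 2.33% lower) and for 1 of the 49 proteasome genes. It was higher in LD by 0.80 ± 0.17 (log2, SE, adjusted p = 0.00615), in 7 of 7 collections, and by 0.65 without the DD array of ZT10 (adjusted p = 0.00783).

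Both called beta subunits belong to the site that cuts after basic residues in mammals: psmb10 is the inducible form and psmb7 its constitutive counterpart. psmb10 had 447, 624 and 739 (lowest, median and highest) in LD, against 233, 414 and 507 in DD. The ranges overlapped, but LD was higher at 7 of 7 collections, and the difference was 0.54 ± 0.13 (adjusted p = 0.0140). For psmb7 the signals were 663, 836 and 980 in LD, against 466, 665 and 758 in DD, with a difference of 0.39 ± 0.13 (adjusted p = 0.0487). The call of psmb7 was lost with any of 12 single arrays left out, all but the ZT2 arrays (up to 0.127 as adjusted p if the LD array of ZT22 is dropped, and 0.0780 without the DD array of ZT10), and with the collections paired as 7 blocks (0.0678).

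In the regulatory particle, psmc5, an ATPase, had 470, 523 and 621 in LD, against 297, 400 and 473 in DD. LD was higher at 7 of 7 collections with a narrow overlap, by 0.48 ± 0.14 (adjusted p = 0.0273). psmd4a, a receptor that holds ubiquitin chains, had 758, 964 and 1424 in LD, against 539, 766 and 924 in DD, a difference of 0.43 ± 0.12 (adjusted p = 0.0271). psmd2, the scaffold that docks shuttle proteins, went the other way: its signals were 197, 215 and 291 in LD, against 227, 331 and 546 in DD. It was lower in LD in 6 of 7 collections, by -0.53 ± 0.15 (adjusted p = 0.0267).

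These 3 calls were lost in part of the fits with a single array left out. The call of psmc5 was lost without either array of ZT22 or of ZT2b (adjusted p = 0.0628 to 0.0686). That of psmd4a was lost without either array of ZT6, ZT14, ZT22 or ZT2b (0.0508 to 0.0671). That of psmd2 was lost without either array of ZT14, ZT22 or ZT2b, or without the LD array of ZT2 (0.0516 to 0.0747). Over the proteasome as a whole, 3 genes were called without either array of ZT14 and 2 without either array of ZT22 or of ZT2b. The share of all probe sets called also moves between such fits, from 20.6% with all arrays to 22.6% without the DD array of ZT10. These counts therefore describe the fits and show no trait particular to the proteasome.

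The brightest probe set of each proteasome role gave no call. psmb1, the brightest beta subunit probe set, averaged 1237 ± 102 in LD (SD, n = 7) and 1375 ± 284 in DD (SD, n = 7), with a difference of -0.13 ± 0.13 (adjusted p = 0.498). The ATPase psmc3 averaged 801 ± 76.3 in LD and 669 ± 135 in DD (0.28 ± 0.15, adjusted p = 0.197). psmd6, a lid subunit, averaged 1104 ± 96.8 in LD and 889 ± 220 in DD (0.35 ± 0.14, adjusted p = 0.0916). Of the 3 psmg genes, which encode assembly chaperones, none was called, and the brightest, psmg3, had -0.10 ± 0.11 (adjusted p = 0.560). In the alpha ring the brightest probe set was that of psma8, with 0.16 ± 0.18 (adjusted p = 0.554), and among the activators that of psme3, with 0.01 ± 0.11 (adjusted p = 0.978).

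**Figure D3:**
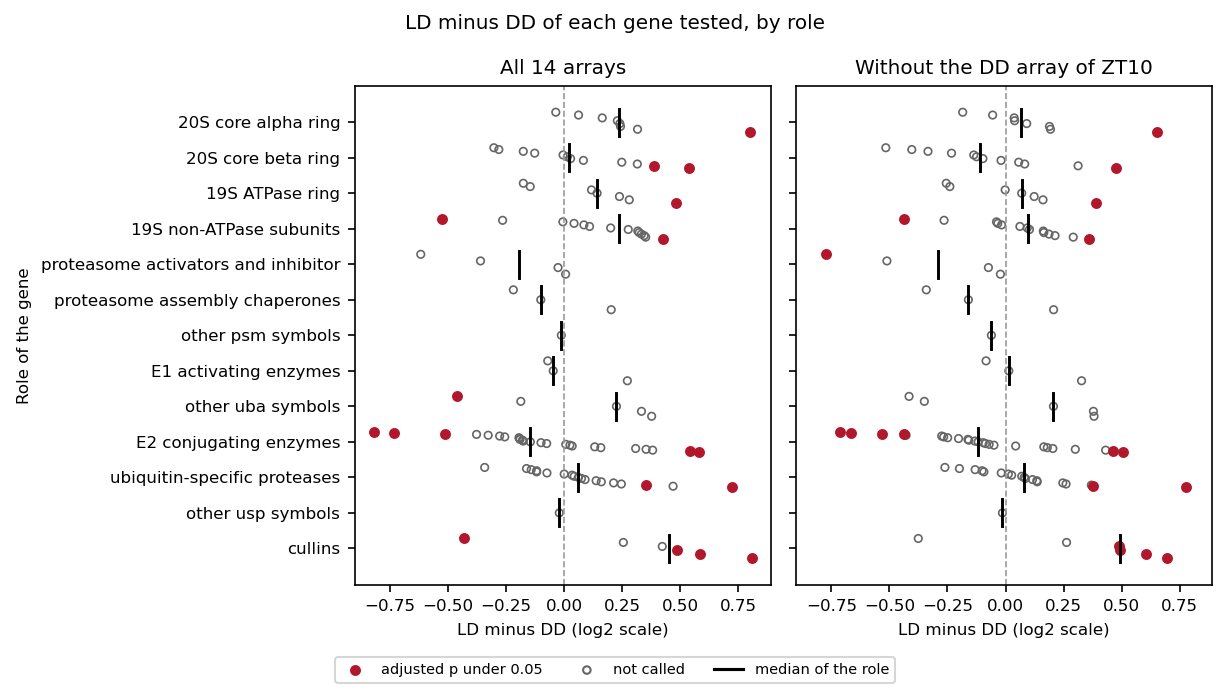
LD minus DD (log2, fitted with collection time as block) of each gene tested, by role, with all 14 arrays (left) and with the DD array of ZT10 left out (right); filled points have an adjusted p under 0.05 and the bars mark each role's median. Cullins lie furthest to the right, with a median of 0.45 with all arrays and 0.49 without that array, while the alpha ring median is 0.23 and 0.07.

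The activator and inducible subunits are described as a group, which was made after their values were seen. psme1 and psme2 form the activator cap that interferon induces in mammals, and psmb8a, psmb9a, psmb12 and psmb13a are beta subunit genes that lie side by side in RefSeq's gene order, with at most 2 protein-coding genes between any pair. psme2 had 34.0, 89.7 and 114 (lowest, median and highest) in LD, against 88.2, 117 and 255 in DD. It was lower in LD in 5 of 7 collections, by -0.62 ± 0.22, which did not pass (adjusted p = 0.0636), and was called without the DD array of ZT10 (-0.77, adjusted p = 0.0243). psme1 had -0.36 ± 0.20 (adjusted p = 0.217). Of all 7 genes of this group, psmb10 included, 5 were below 0, with a median of -0.28.

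For 4 of these genes, psme1, psme2, psmb9a and psmb13a, the 3 highest DD values came from the same 3 arrays. psme1 had 178, 294 and 248 on the DD arrays of ZT2, ZT18 and ZT22, against 108 to 152 on the other 4 DD arrays. psmb13a had 64.3, 66.4 and 71.9 on them, against 10.8 to 37.7. psmb9a, with 99.5, 78.8 and 99.4 against 35.4 to 71.7, showed the same split. psmb8a, psmb10 and psmb12 did not. psmb12 had 56.7 on the DD array of ZT18, against 60.1 at ZT6, and psmb10 had 414 on that of ZT22, against 474 at ZT14. psmb8a had 58.3, 79.2 and 63.2 on these arrays and 33.6 to 70.9 on the others.

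Of the 6 leukocyte markers measured, ptprc, lcp1, cd74a and cd74b had their 3 highest DD values on those arrays, whereas coro1a had 209 on the DD array of ZT22, against 211 on that of ZT14, and mpx was highest in DD at ZT6 (19.1). The pan-leukocyte gene ptprc had 121, 152 and 104 on the DD arrays of ZT2, ZT18 and ZT22, against 50.1 to 94.0 on the other DD arrays and 34.6 to 65.5 in LD. lcp1, another leukocyte gene, had 396, 504 and 295 there, against 113 to 275 on the other DD arrays and 69.1 to 279.5 in LD. The part of leukocytes in the values of psme1, psme2, psmb9a and psmb13a was not tested. isg15, an interferon-induced ubiquitin-like modifier, followed another order, with its highest values on the DD arrays of ZT18 (736) and ZT6 (647). It averaged 55.8 ± 18.9 in LD and 312 ± 266 in DD, a difference of -1.86 ± 0.34 (adjusted p = 0.00314), and was lower in LD in 7 of 7 collections.

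Among the ubiquitin genes, 12 of 59 (20.3%) differed between LD and DD, close to the 20.6% of all probe sets tested. Of these, 7 were higher in LD and 5 lower. The LD and DD signals did not overlap for 4 of the 59 (6.78%), against 4.46% of all probe sets tested. Of the 3 tested E1 genes, none was called. uba1, the main ubiquitin-activating enzyme, averaged 793 ± 130 in LD (SD, n = 7) and 820 ± 132 in DD (SD, n = 7), with a difference of -0.05 ± 0.12 (adjusted p = 0.812).

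Of 25 tested E2 genes, 5 (20%) were called, 3 lower in LD and 2 higher, near the 20.6% of all probe sets tested. ube2e3 had 197, 287 and 339 (lowest, median and highest) in LD, against 355, 483 and 683 in DD. Every LD array lay below every DD array, and the difference was -0.82 ± 0.15 (adjusted p = 0.00286). A dimmer probe set of ube2e3 gave -0.13 ± 0.16 and was not called (adjusted p = 0.614). ube2s extends chains for the anaphase-promoting complex. It had 156, 199 and 245 in LD, against 276, 325 and 399 in DD, again with no overlap, and was lower by -0.73 ± 0.13 (adjusted p = 0.00286). ube2g2, an E2 of degradation at the endoplasmic reticulum, had 159, 195 and 250 in LD, against 227, 289 and 331 in DD. Its ranges overlapped slightly, it was lower in LD in 7 of 7 collections, and the difference was -0.51 ± 0.11 (adjusted p = 0.00614).

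The E2 genes that were higher in LD were ube2v1 and ube2q2. ube2v1 encodes an E2 variant with no active site, which pairs with Ube2n. It had 578, 639 and 819 in LD, against 307, 467 and 536 in DD, with no overlap and a difference of 0.54 ± 0.12 (adjusted p = 0.00793). ube2q2 had 204, 255 and 298 in LD, against 108, 157 and 217 in DD, a difference of 0.58 ± 0.14 (adjusted p = 0.0110), higher in 7 of 7 collections with a small overlap. The Ube2n gene ube2nb gave no call: it averaged 337 ± 52.9 in LD and 359 ± 126 in DD and had 0.02 ± 0.23 (adjusted p = 0.954). The brightest E2 probe set, that of ube2a, had -0.15 ± 0.10 (adjusted p = 0.325).

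**Figure D4:**
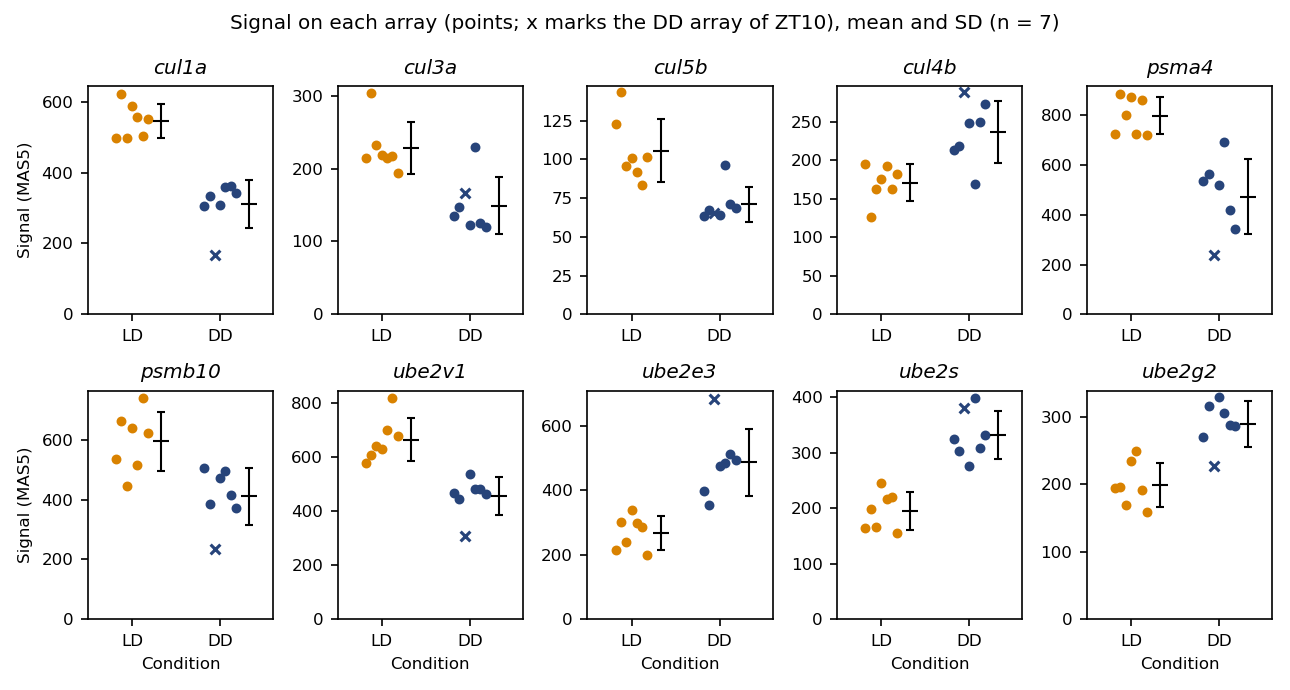
MAS5 signal on each array for 10 genes called between LD (left of each panel) and DD (right), with the mean and SD (n = 7) beside the points and an x for the DD array of ZT10. LD and DD do not overlap for cul1a, psma4, ube2v1, ube2e3 and ube2s, and the DD array of ZT10 is the lowest of the DD arrays for cul1a, psma4, psmb10, ube2v1 and ube2g2. Of all 108 members tested, 5 (4.63%) did not overlap, near the 4.46% of all probe sets tested.

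The cullins had the highest share of calls of any role, 4 of 6 (66.7%), against 20.6% of all probe sets tested, and all 6 had an unadjusted p under 0.05 (35.3% of all probe sets). With 6 genes, and with roles chosen when earlier results of these data were known, this is a description of these genes. cul1a, the scaffold of the SCF ligases, had 497, 553 and 623 in LD, against 169, 336 and 362 in DD. The groups did not overlap, and it was higher in LD by 0.81 ± 0.13 (adjusted p = 0.00175). Without the DD array of ZT10, its lowest, it was higher by 0.70 (adjusted p = 0.00136).

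cul3a, the scaffold for BTB-domain receptors, had 194, 218 and 304 in LD, against 120, 134 and 230 in DD. Of the DD arrays, that of ZT18 alone reached the LD range, and the difference was 0.58 ± 0.13 (adjusted p = 0.00847). cul5b, the scaffold for SOCS-box receptors, had 83.7, 101 and 143 in LD, against 63.2, 67.4 and 96.4 in DD, again with the DD array of ZT18 as the highest. Its difference was 0.48 ± 0.13 (adjusted p = 0.0202), and the call was lost without the LD array of ZT6 (0.0573) or the DD array of ZT6 (0.0565).

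cul4b, the scaffold for DDB1-bound receptors, was the cullin called lower in LD. Its signals were 126, 176 and 196 in LD, against 170, 248 and 288 in DD, with a difference of -0.43 ± 0.13 (adjusted p = 0.0332). The call was lost without either array of ZT6, ZT10, ZT14, ZT22 or ZT2b (0.0574 to 0.0844). The other cullins did not pass: cul1b had 0.42 ± 0.16 (adjusted p = 0.0731) and cul5a had 0.25 ± 0.11 (adjusted p = 0.111). Without the DD array of ZT10, cul1b was called (0.49, adjusted p = 0.0425) and cul4b was not (-0.38, adjusted p = 0.0577).

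Partners of the cullins came from a list of 123 other genes of the pathway, of which 80 were on the array and 74 tested. The list was chosen with earlier results of these data known, so the shares of it and of its parts only describe these genes. In this list 18 of 74 (24.3%) were called, 14 higher and 4 lower, where 20.6% of all probe sets tested were called, 10% higher and 10.6% lower. The LD and DD signals did not overlap for 8 of the 74 (10.8%), against 4.46% of all probe sets tested. ddb1, the adaptor of the cul4 ligases, had 437, 443 and 605 (lowest, median and highest) in LD, against 223, 239.5 and 285 in DD. The groups did not overlap, and ddb1 was higher by 0.94 ± 0.11 (adjusted p = 3.02e-04). fbxl3a encodes an F-box protein, which in mammals directs cryptochromes to degradation. It averaged 1145 ± 409 in LD and 585 ± 177 in DD, higher in 7 of 7 collections by 0.93 ± 0.11 (adjusted p = 3.47e-04).

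Of the 7 tested genes of the COP9 signalosome, which strips Nedd8 from cullins, 3 (42.9%) were higher in LD, where 10% of all probe sets tested were. cops5, its catalytic subunit, averaged 390 ± 63.1 in LD and 252 ± 44.8 in DD with no overlap (0.60 ± 0.13, adjusted p = 0.00750). cops3 had 0.54 ± 0.13 (adjusted p = 0.0120), a call lost without both ZT2b arrays (0.0653). The call of cops7a (0.39 ± 0.13, adjusted p = 0.0448) was lost with 10 of 14 single arrays left out (up to 0.112 without the DD array of ZT6). It was also lost with the collections paired as 7 blocks (0.0583). Without the DD array of ZT2b, 11 of the 74 list genes were called. Among the 4 lower genes, rad23b, a shuttle that brings ubiquitinated proteins to the proteasome, averaged 38.1 ± 3.14 in LD and 74.5 ± 9.86 in DD, with no overlap (-0.75 ± 0.11, adjusted p = 0.00116). otub1b, a protease that also blocks Ube2n in mammals, averaged 254 ± 35.2 in LD and 415 ± 28.8 in DD, with no overlap (-0.69 ± 0.12, adjusted p = 0.00257).

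Of 19 tested ubiquitin-specific proteases, 2 (10.5%) were called, both higher in LD, where 20.6% of all probe sets tested were called. usp42 had 83.1, 148 and 238 (lowest, median and highest) in LD, against 75.0, 87.4 and 106 in DD. All LD arrays except that of ZT2b lay above all DD arrays, and the difference was 0.72 ± 0.16 (adjusted p = 0.00850). usp10 had 287, 395 and 474 in LD, against 255, 299 and 340 in DD, with 0.35 ± 0.11 (adjusted p = 0.0421). Its call was lost without either array of ZT2, ZT6, ZT18, ZT22 or ZT2b (0.0655 to 0.108), and with the collections paired as 7 blocks (0.0614).

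The brightest of these proteases was usp2a, whose mouse counterpart is transcribed under clock control. It had 281, 553 and 815 in LD, against 241, 383 and 559 in DD, with overlapping ranges. LD was higher in 6 of 7 collections, by 0.47 ± 0.16, which missed the threshold (adjusted p = 0.0523). Among the uba symbols that are no E1 enzymes, ubald1a was lower in LD by -0.46 ± 0.15 (adjusted p = 0.0426), with 113.5, 144 and 265 in LD, against 198, 246 and 290 in DD. That call was lost with 12 of 14 single arrays left out, all but the ZT2 arrays (up to 0.120 if the LD array of ZT14 is dropped), and with the collections paired as 7 blocks (0.0571).

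Since lights were on in LD but not in DD during the day, and off in both at night, the difference was also fitted apart for the hours of day and night. By day, 1 of 49 proteasome genes (2.04%) and 8 of 59 others (13.6%) were called, where all probe sets tested had 9.23% (4.97% higher in LD and 4.26% lower). psma4 was higher by 0.95 ± 0.22 (adjusted p = 0.0234). By night, limma called 0 of 49 and 0 of 59, with 4 (8.16%) and 13 (22%) at an unadjusted p under 0.05 against 20.6% of all probe sets, where 2.93% of all probe sets were called (1.37% higher in LD and 1.56% lower). The difference between the day and night values themselves gave 0 calls among all probe sets tested (0%), with 1 proteasome gene and 1 other at an unadjusted p under 0.05 (5.67% of all probe sets), so no gene was shown to differ more by day than by night.

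The others called by day were cul1a (0.92 ± 0.17), cul5b (0.68 ± 0.16), ubap2b (0.68 ± 0.16), cul3a (0.67 ± 0.17) and ube2v1 (0.57 ± 0.16), all higher, and ube2e3 (-0.95 ± 0.19), ube2s (-0.92 ± 0.16) and ube2g2 (-0.57 ± 0.14), all lower, with adjusted p from 0.00680 to 0.0466. ubap2b, named for a ubiquitin-associated domain, was the member of this group with no call over all hours (0.38 ± 0.15, adjusted p = 0.0928). Its night difference was -0.03 ± 0.18 (adjusted p = 0.956), and its day-minus-night difference of 0.70 ± 0.24 did not pass (adjusted p = 0.761). The day calls changed with single arrays left out. Between 0 and 2 proteasome genes were called with an array left out, with none left without either array of ZT10 or of ZT2b, and psma4 had 0.0546 to 0.0801 there. Of the others 3 were called without the LD array of ZT2, either array of ZT6 or the DD array of ZT2b, 4 without the DD array of ZT2 and 5 without the LD array of ZT2b. The day call of ube2v1 was lost with any of the 14 arrays left out, and those of cul1a and ube2s with none. The arrays of ZT14, ZT18 and ZT22 enter the estimate of the spread but not the day difference. Without any of them the size of ube2v1 stayed at 0.57, with an adjusted p of 0.0529 to 0.0708, so these losses mark a call near the threshold.

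Whether the proteasome follows the time of day was tested with a 24-h wave over both conditions. The size of a rhythm is its trough-to-peak height in log2 units as fitted, which noise alone keeps above 0. limma called 0 of the 49 proteasome genes rhythmic, with 1 at an unadjusted p under 0.05 (psmd3, 0.65 ± 0.22, peak at ZT9.68, adjusted p = 0.225), where 4.86% of all probe sets tested were called. The median size was 0.25 for the proteasome genes, 0.31 for the ubiquitin genes and 0.34 for all probe sets. Of the 59 ubiquitin genes, 2 (3.39%) were rhythmic, cul1b and ube2h.

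cul1b, the paralogue of the SCF scaffold gene cul1a, was highest around dusk. In LD its signal was 300 at ZT2, 257 at ZT2b, 473 at ZT6, 480 at ZT10, 884 at ZT14, 455 at ZT18 and 275.5 at ZT22. In DD it was 262 at ZT2, 168 at ZT2b, 263 at ZT6, 485 at ZT10, 397 at ZT14, 400 at ZT18 and 257 at ZT22. The wave had a size of 1.24 ± 0.20 and its peak at ZT13.0 (adjusted p = 0.00294). In LD alone it was 1.39 ± 0.29 (adjusted p = 0.0294), and that call was lost without the LD array of ZT2 (0.0643), ZT14 (0.282), ZT18 (0.0528), ZT22 (0.0810) or ZT2b (0.119). cul1a had no call, with a size of 0.32 ± 0.21 (adjusted p = 0.648).

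ube2h, an E2 that serves the CTLH ligase in mammals, was highest at night. In LD its signal was 88.8 at ZT2, 77.3 at ZT2b, 92.5 at ZT6, 117 at ZT10, 239 at ZT14, 218 at ZT18 and 169 at ZT22. In DD it was 88.7 at ZT2, 122 at ZT2b, 109 at ZT6, 119 at ZT10, 117 at ZT14, 204 at ZT18 and 169 at ZT22. The LD arrays of ZT14, ZT18 and ZT22 and the DD arrays of ZT18 and ZT22 were the highest, and the DD array of ZT14 lay among the day values. The wave had a size of 1.11 ± 0.21 with its peak at ZT17.2 (adjusted p = 0.0107). In LD alone it was 1.50 ± 0.26 (adjusted p = 0.00870), which was lost without the LD array of ZT14 (0.0726).

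**Figure D5:**
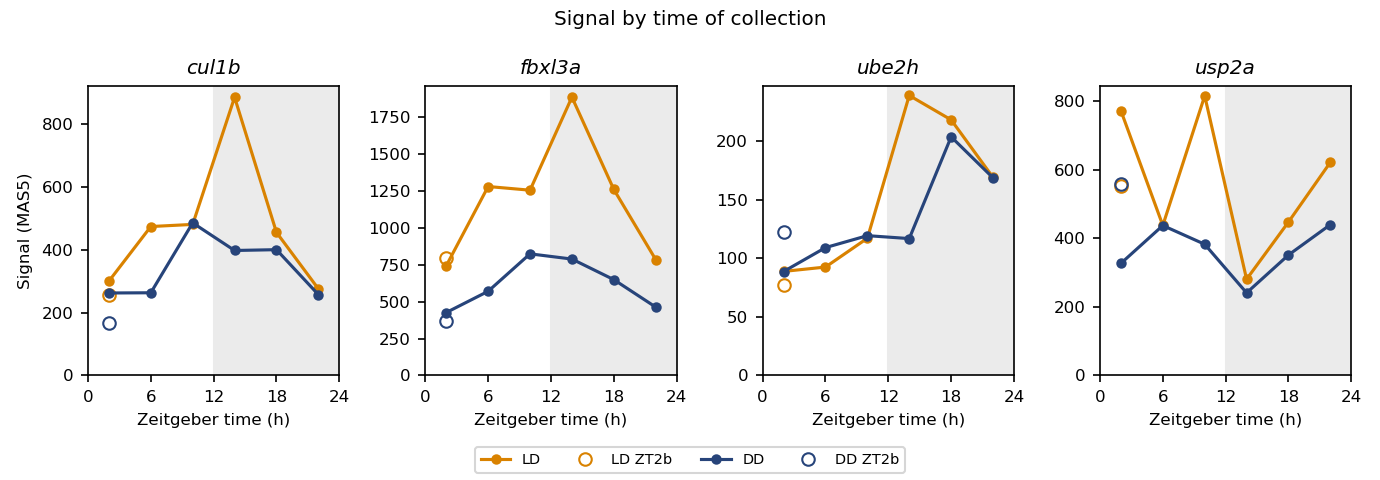
MAS5 signal of cul1b, fbxl3a, ube2h and usp2a by zeitgeber time in LD (orange) and DD (blue), 1 pool per point, with open circles for the ZT2b collections and shading for the hours that are dark in LD. In LD, cul1b and fbxl3a are highest at ZT14 (884 and 1887), ube2h also at ZT14 (239), and usp2a is lowest there (281).

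In LD alone, 0 of 49 proteasome genes and 2 of 59 others were called, where 4.1% of all probe sets were; 3 proteasome genes and 7 others had an unadjusted p under 0.05 (16.4% of all probe sets). In DD alone limma called 0 of 49 and 0 of 59, with 3 (6.12%) and 4 (6.78%) at an unadjusted p under 0.05 against 10.9% of all probe sets, where 0.645% of all probe sets were called. The difference between the rhythms of LD and DD gave 0 calls over all probe sets tested (0%), with 3 proteasome genes and 1 other at an unadjusted p under 0.05 (7.12% of all probe sets). For ube2h that difference had an adjusted p of 0.708. psme1 and psmb13a had sizes of 1.17 ± 0.29 and 1.42 ± 0.39 in DD (adjusted p = 0.193 and 0.259), with peaks at ZT19.3 and ZT20.9, and neither passed. Without the DD array of ZT10, no beta ring gene had an adjusted p under 0.732 in DD. Among the activators and inhibitor, the smallest was then 0.322. The LD and DD waves differed by more than 1 for 11 of the 108 members tested and for 1411 of all 9299 probe sets tested. Among these members were psma5 (1.29 ± 0.54), psma8 (1.06 ± 0.49), psmb12 (1.18 ± 0.58), psmd8 (1.01 ± 0.53) and, just past 1, ube2l3a, none called (adjusted p = 0.701 to 0.793). These sizes moved with the DD array of ZT10: without it they were 0.44 for psma5, 0.24 for psma8, 0.74 for psmb12, 0.19 for psmd8 and 0.73 for ube2l3a. For the activators and inhibitor the median difference moved little, from 0.98 with all arrays to 0.90 without that array.

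Neither usp1 nor usp2a was called rhythmic. usp1, a protease that acts in DNA repair, had 0.51 ± 0.13 with a peak at ZT2.37 (adjusted p = 0.0755). Its signals in LD were highest at ZT2, ZT2b and ZT6 (192, 192 and 184) and lowest at ZT14 (131). usp2a had 0.65 ± 0.26 with a peak at ZT2.78 (adjusted p = 0.315), and was lowest at ZT14 in both conditions, with 281 in LD and 241 in DD.

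In the list of other pathway genes, 3 of 74 (4.05%) were rhythmic over both conditions, below the 4.86% of all probe sets tested. fbxl3a, the F-box gene named above, had a size of 1.11 ± 0.15 and its peak at ZT12.7 (adjusted p = 7.11e-04), and its signal at ZT14 was 1887 in LD and 789.5 in DD. The calls over both conditions of fbxl3a, cul1b and ube2h were kept with each single array left out, but an F-test over the 6 times in place of the wave ended those of cul1b (0.0967) and ube2h (0.154). zfand5a, a proteasome-binding zinc finger gene, peaked before dawn at ZT22.2 (1.11 ± 0.19, adjusted p = 0.00614), with 1612 in LD and 808 in DD at ZT22, and lost its call with that F-test (0.0522). keap1a, the BTB adaptor that links cul3 ligases to Nrf2, peaked at ZT23.7 (0.92 ± 0.20, adjusted p = 0.0310). That call was lost without the DD arrays of ZT2 (0.0545) or ZT10 (0.0736), or the LD arrays of ZT2, ZT10, ZT14, ZT22 or ZT2b (0.0554 to 0.105). In LD alone the 3 calls were fbxl3a, zfand5a and fbxo25, an F-box gene with 38.0 at ZT6 and 421 at ZT22 (2.41 ± 0.46, adjusted p = 0.0185). In LD no list gene was called when the array of ZT14 or of ZT22 was left out, and 1 was called when that of ZT2, ZT6 or ZT2b was.

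Of the 117 genes, 20 had more than 1 probe set, and 15 of the 25 other probe sets were bright enough to test. In the comparison of LD with DD, 7 of these 15, from 6 genes, had the opposite sign to the probe set used. The clearest was usp36, whose brighter probe set had -0.34 ± 0.14 (93.6 ± 17.0 in LD and 124 ± 32.1 in DD, adjusted p = 0.0978) while the other was higher by 0.57 ± 0.15 (adjusted p = 0.0181). A probe set of psme3ip1 was higher by 0.49 ± 0.14 (adjusted p = 0.0261), with -0.01 for the brighter set. For called genes, the other probe set of ube2e3 gave -0.13 ± 0.16, that of usp42 0.33 ± 0.16 and that of usp10 0.46 ± 0.19, each with the same sign and none called (adjusted p = 0.614, 0.148 and 0.0979).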

How the data were processed

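The deposited values are linear intensities, the MAS5 signals that the authors computed for the probe sets. GCOS and MAS5 were used, per the submitters' processing notes; their versions are not given in the sources used here. After leaving out 2% of probe sets at each end, the mean signal was 150 on every array, as computed from the deposited signals. The table held 15617 probe sets, 115 of them controls. 1 empty cell led to its probe set being left out, and no column was left unused (0 columns). Precision is limited by the number of arrays.

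Members were selected by symbol in the platform annotation. All 117 Entrez IDs matched RefSeq's gene table (assembly GRCz12tu) and 0 symbols changed. Coordinates are left out because the files name no build. The analysis scale was log2(signal + 14.9), the pseudocount being the 25th percentile of all values. Probe sets with a mean signal above 29.2, the 40th percentile of the means, were tested, which left 9299 probe sets of 6116 genes. No further normalisation was applied.

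The test was limma 3.58.1 (R 4.3.3), with lmFit and a trended eBayes, run over all these probe sets with Benjamini-Hochberg adjustment and a threshold of 0.05, and every adjusted p in the text comes from it. Rhythms were F-tests of cosine and sine terms of 24 h with light condition in the model. LD was compared with DD with the 6 times as a block, since the labels give both conditions the same collection times. With this block, leaving out an array also takes the weight from its partner at that time, except at ZT2 and ZT2b. The code was tested on simulated data. Figures were drawn with matplotlib.

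Named genes are the called members with the largest differences, the brightest member of each role, members with a size past 1, and called genes of the pathway list. psmb8a, psmb9a, psmd3, usp1, usp33, usp36, cul5a and the partner genes of called members were named after their values were seen. The members, roles and lists were chosen with earlier results of these data known. The labels give no date or batch; had LD and DD been processed apart, batch and light cannot be told apart. Alternatives covered the pseudocount, filter, normalisation, variance prior, 1 probe set per gene, block, wave shape, the ZT2b arrays and each array left out.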

Additional observations from a re-analysis of the deposited data

Results flagged for a closer look

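Of 41 named members in 2 conditions, 82 groups of 7 arrays were checked for an array far from the rest of its condition, by the gap to the nearest array as a share of the range (Dixon's critical value for 7 arrays). 12 were found. Dixon's value is set for about 1 in 20 by chance. Part of the members were named for calls or large sizes in these same values, so the count cannot be set against that rate. The arrays of a condition are also a time course.

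The DD array of ZT10 was the lowest by such a gap for 7 genes. cul1a had 168.6 there, with the nearest DD array at 305. The core subunits psma8 and psmb3 had 286.4 and 408.5, with the nearest at 592 and 1026. The assembly chaperone psmg3 had 306.2, with the nearest at 486. psme3ip1 had 85.9, with the nearest at 135. The E2 genes ube2nb and ube2v1 had 91.7 and 307, with the nearest at 340 and 446.

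The other 5 were high values. The DD array of ZT18 had 229.6 for cul3a and 96.4 for cul5b, with the nearest at 166.5 and 71.2. The LD array of ZT6 had 303.9 for cul3a and 393 for psme3, a nuclear proteasome activator, with the nearest at 233 and 281. The LD array of ZT14 had 884.3 for cul1b, with the nearest at 480.2.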

How the results depend on the processing

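No call changed direction under any alternative. Over the calls of single genes and their alternatives, 1303 checks kept the call and 333 lost it. Of the 18 members called between LD and DD, 9 kept the call under all 25 alternatives: psma4, cul1a, cul3a, ube2e3, ube2s, ube2g2, ube2q2, ube2v1 and usp42. psmb10 lost it only without both ZT2b arrays (adjusted p = 0.0663).

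With the collections paired in a block of 7, 6 proteasome genes, 10 ubiquitin genes and 14 list genes were called, without psmb7, usp10, ubald1a, cops7a, nploc4, rnf41 and stub1 (0.0571 to 0.0693). With no replicate block 6, 11 and 19, against 6, 12 and 18 with the block of 6 times. A block of collections could not be fitted with the wave and was not run.

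With an F-test over the 6 times in place of the wave, 0 ubiquitin genes and 1 list gene were rhythmic over both conditions (cul1b 0.0967, ube2h 0.154). Without both ZT2b arrays, 0 ubiquitin genes and 1 list gene were rhythmic in LD, 1 proteasome gene and 8 list genes were called between LD and DD, by day 0 of all 3 sets were called, and by night 0 list genes. By day, 2 proteasome genes were called with the filter at the 60th percentile, the robust prior or 1 probe set per gene, and 5 ubiquitin genes with no filter.

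With single arrays left out, calls in LD rhythms were 0 to 2 for ubiquitin genes and 0 to 4 for list genes, and 0 to 1 for list genes in DD. Between LD and DD they were 2 to 7 for the proteasome and 11 to 22 for list genes. By day they were 0 to 2, 3 to 8 and 5 to 10 for the 3 sets. By night they were 0 to 1 for ubiquitin genes and 0 to 5 for list genes. The share of all probe sets called moves between fits too. Omitting DD ZT10 took it from 2.93% to 6.44% by night and from 20.6% to 22.6% between LD and DD. By day it went from 9.23% to 8.94%. For rhythms it went from 4.86% to 6.14% over both conditions, from 4.1% to 6.43% in LD and from 0.645% to 0.613% in DD. The counts above stand without that share, so they describe the fits and not these genes. The cause of the changes in these counts was not tested. The signals hold no read depth, and the 9 dimmest members could not be tested.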

Other observations

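Other genes of the ubiquitin list that were higher in LD served several steps of the pathway. vcp, the ATPase that extracts ubiquitinated proteins from membranes and complexes, averaged 466 ± 106 in LD (SD, n = 7) and 324 ± 76.9 in DD (SD, n = 7), with 0.51 ± 0.13 (log2, SE, limma adjusted p = 0.0162). nploc4, its cofactor, had 0.32 ± 0.11 (adjusted p = 0.0481), a call lost without either array of any time but ZT10 (up to 0.118 without the LD array of ZT18) and with the collections paired as 7 blocks (0.0660). adrm1, a ubiquitin receptor of the proteasome, averaged 169 ± 21.1 in LD and 128 ± 21.1 in DD and had 0.37 ± 0.11 (adjusted p = 0.0312), lost with 8 of 14 single arrays left out, those of ZT2, ZT6, ZT14 and ZT2b.

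Of the ligases, ube4b averaged 181 ± 43.8 in LD and 106 ± 14.8 in DD (0.67 ± 0.12, adjusted p = 0.00258). The signals of huwe1, with 92.6 ± 19.6 in LD and 58.0 ± 10.4 in DD, did not overlap (0.56 ± 0.11, adjusted p = 0.00502). Both kept their calls over all hours under every alternative that tested them. stub1, a ligase that works with chaperones, was lower in LD, with 624 ± 89.8 in LD and 793 ± 55.8 in DD (-0.35 ± 0.12, adjusted p = 0.0483). That call was lost with 10 of 14 single arrays left out, all but those of ZT10 and ZT14, and with the 7 paired blocks (0.0693). mdm2, the ligase of p53, was called by day and not over all hours, at 0.83 ± 0.17 (adjusted p = 0.0154), a call lost without the LD array (0.0525) or DD array (0.0507) of ZT2b. Its day and night differences were not shown to differ.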
